A study of Homo sapiens with 8 samples.

Results

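A set of 9 genes of early mesendoderm and endoderm was followed at the level of single assembled transcripts. They are 8 transcription factors (EOMES, TBXT, MIXL1, GSC, LHX1, HHEX, SOX17 and FOXA2) and 1 chemokine receptor, CXCR4, so that the group is wider than transcription factors alone. They were chosen by name, as the rows of the combined count table that carry these symbols and have a gene name in the combined assembly. All 9 genes of 20195 named genes were found, with 16 of the 96614 transcripts that have reads.

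All cells came from the established human embryonic stem cell line H1. Polyadenylated RNA was read as long molecules on a PacBio Sequel II, with 2 repeats in each of 4 groups. Undifferentiated cells (hPSC) were kept in mTeSR1 on Matrigel. Endoderm was grown in RPMI with WNT3A, Activin A at 100 ng/ml and 0.5% FBS. Mesoderm was grown in DMEM/F12 with VEGF and BMP4 at 100 ng/ml each, bFGF at 10 ng/ml and 0.5% FBS, and with Activin A at 100 ng/ml only in the first 24 hours. Ectoderm was grown in DMEM/F12 with 15% KOSR and with A83-01, PNU-74654 and Dorsomorphin at 2 µM each, which are inhibitors of Activin and NODAL receptors, of β-catenin with TCF, and of BMP receptors. The 3 differentiated media shared MEM non-essential amino acids and b-mercaptoethanol, and the endoderm and mesoderm media also held GlutaMax. Differentiated cells were collected after 5 days. The labels do not say that repeats came from separate cultures, so the p-values measure only the spread between these samples, which may be technical. All groups come from 1 line and are bulk cultures.

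In the embryo, WNT and NODAL signals at the primitive streak switch on T-box and homeobox factors in cells that can still form mesoderm or endoderm. Activin A, which uses the receptors of NODAL, takes the place of NODAL in culture. Cells that go on to definitive endoderm then carry SOX17 and FOXA2, and CXCR4 on their surface is widely used to sort them.

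Between 503840 and 1180888 reads were counted in a library, and a count of 0 allowed up to 3 reads, or 2.54 to 5.95 CPM (counts scaled to a common library total). That limit and the intervals on counts, ratios and shares cover counting error only. The 9 genes had 563 reads in the 2 endoderm libraries and 9 reads in the other 6 libraries together. Endoderm thus held 98.4% of their reads against 21.6% of all reads. No gene had more than 2 reads in any library outside endoderm, and SOX17, EOMES and FOXA2 had 0 reads in all 6 of them. In these bulk samples, fewer cells of a type and less RNA per cell cannot be told apart.

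**Figure D1:**
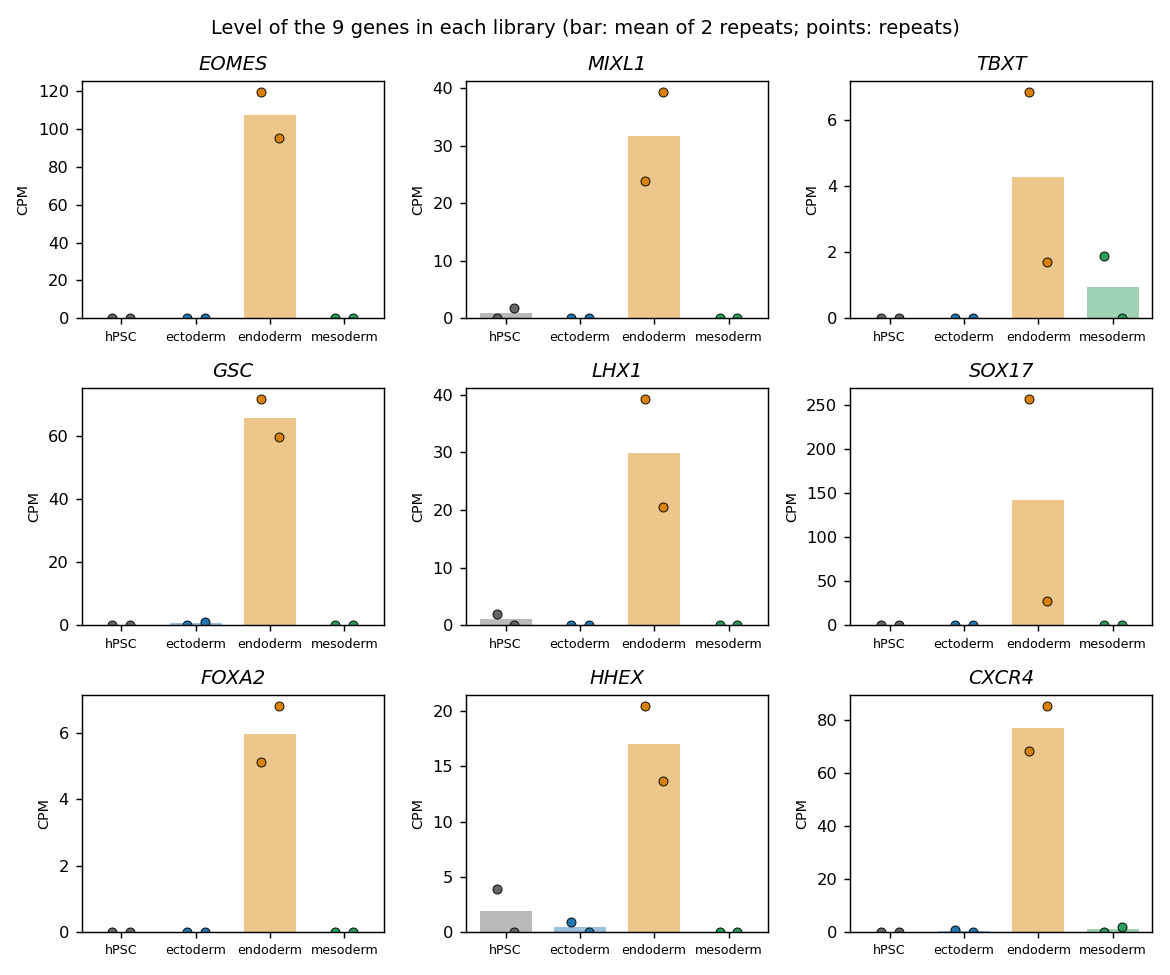
Level of each gene, in CPM on the vertical axis, in the 4 groups on the horizontal axis, with bars at the mean of 2 repeats and points for the repeats, on a separate scale per gene. Each bar is tallest in endoderm, and the 2 endoderm points of SOX17 (256 and 27.3) lie far apart.

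EOMES (ENSG00000163508.13; GRCh38 chr3:27715949-27722711, minus strand) is a T-box factor at the head of the endoderm program. It had 70 and 56 reads in the endoderm repeats and 0 in hPSC, ectoderm and mesoderm. Its mean was 108 ± 17.0 CPM (SD, n = 2) in endoderm, at least 18.6-fold above hPSC, at least 18.1-fold above mesoderm and at least 34.7-fold above ectoderm. These bounds set the endoderm mean against 3 reads in the shallower library of the other group. The fitted log2 fold change against hPSC was 9.69 ± 0.85 (SE; edgeR quasi-likelihood test, Benjamini-Hochberg adjusted p = 6.66e-06). It is a fitted value against a group at 0 and no bound. The same holds for GSC, SOX17 and CXCR4 below, which also had no hPSC reads.

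The EOMES reads fell on 5 transcripts that combine 3 starts with 2 forms of the last exon. The start used most, at position 27722323, is the RefSeq start and held 61 of 126 reads (48.4%; exact Clopper-Pearson 95% interval 39.4 to 57.5). An upstream start at 27722711 held 31 reads (24.6%), and the GENCODE 29 form with that start and these introns begins its coding sequence at 27720321, in exon 2. An internal start at 27720919 held 34 reads (27.0%; interval 19.5 to 35.6). Its 52-base first exon has no counterpart in GENCODE 29, and it shares the other 5 exons with the main form. The shares of the internal start were 27.1% and 26.8% in the 2 repeats, and those of the main start were 50.0% and 46.4%, so the repeats gave nearly the same mix.

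The last EOMES exon starts at either of 2 positions, 57 coding bases apart. The longer form held 114 reads (90.5%; 94.3% and 85.7% in the repeats) and the shorter 12 reads (9.52%; 5.02 to 16.0). Both are shown because they differ in the protein sequence and because long reads tie each to a start. Capitals mark the 57 bases at chr3:27717752-27717808 (minus strand, from the GENCODE 29 transcripts), between the 12 bases on each side.
EOMES with the 57 bases: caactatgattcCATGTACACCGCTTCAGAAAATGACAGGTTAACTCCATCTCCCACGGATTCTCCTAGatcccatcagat
EOMES without the 57 bases: caactatgattcatcccatcagat
The shorter form had 4 and 8 reads in the repeats, split equally between the main and the upstream start, with 6 reads each. None of the 34 reads from the internal start carried it in the assembly.

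TBXT (ENSG00000164458.10), also called Brachyury, is the T-box factor of the streak and the early mesoderm. It had 4 and 1 reads in endoderm and 1 and 0 in mesoderm, the lowest total of the 9 genes. It had no reads in hPSC or ectoderm. The ratio of pooled CPM between endoderm and mesoderm was 4.42, with an exact conditional binomial 95% interval of 0.494 to 209 that includes 1. At 5 days and this depth a difference between endoderm and mesoderm was thus not detectable. TBXT was too low for the test across genes. Its transcripts, at chr6:166157643-166167851 on the minus strand, differ by 3 bases at one splice acceptor (capitals, chr6:166162621-166162623), which keeps the reading frame.
TBXT with the 3 bases: ggtactcccaatCAGgggggtggcttc
TBXT without the 3 bases: ggtactcccaatgggggtggcttc
The form with the 3 bases matches a GENCODE 29 transcript and had 4 of the 5 endoderm reads.

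MIXL1 (ENSG00000185155.12; chr1:226223916-226227060, plus strand) is a paired-type homeobox factor of the streak. It had 14 and 23 endoderm reads, 1 read in hPSC repeat 2 and none elsewhere. Endoderm was 34.1-fold above hPSC in pooled CPM (exact conditional interval 5.76 to 1385), at least 5.30-fold above mesoderm and at least 10.2-fold above ectoderm. The fitted log2 fold change against hPSC was 5.20 ± 0.88 (SE; edgeR adjusted p = 0.000756). Its single transcript has the reference introns but begins 298 bases inside the GENCODE 29 start, so that 234 of 696 coding bases lie before it. No read of MIXL1 was assigned to a transcript that reaches the RefSeq start, which lies 252 bases upstream.

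MIXL1 was the only one of the 6 genes with a RefSeq promoter whose window held an exact match to a FOXH1 or a TCF and LEF site. It is shown for that reason, with both matches in capitals (RefSeq, GRCh38.p14, chr1:226223414-226223663, plus strand, the 250 bases before the start). FOXH1 is the DNA-binding partner of the SMADs that carry NODAL and Activin signals, and TCF and LEF factors carry WNT signals.
MIXL1 promoter: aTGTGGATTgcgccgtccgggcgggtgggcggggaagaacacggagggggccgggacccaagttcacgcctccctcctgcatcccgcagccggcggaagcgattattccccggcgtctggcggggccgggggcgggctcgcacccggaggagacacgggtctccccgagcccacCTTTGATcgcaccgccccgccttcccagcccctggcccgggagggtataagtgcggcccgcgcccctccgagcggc
The FOXH1 letters searched were AATCCACA, and the match lies on the reverse strand, 249 bases before the start. The TCF and LEF letters were ATCAAAG, matched on the reverse strand 76 bases before the start. Both strands of the 300-base windows (250 bases before to 50 after the start) were searched. Of 35116 RefSeq promoters, 0.817% hold the FOXH1 letters and 2.62% the TCF and LEF letters. A match describes letters and not binding.

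The other letters searched were AGGTGTGA for a T-box site (in 0.980% of promoters), TAATCC for GSC and OTX factors (6.36%), TGTTTAC for forkhead factors (3.42%) and TATAAA for a TATA box (11.5%). None of the first 3 was matched in the windows of the 6 genes. The TATA letters lay 31 bases before the EOMES start, on the reverse strand, and 30 and 32 bases before the CXCR4 start, on the forward and reverse strand, where the matches overlap. Both windows are shown because EOMES transcripts with 61 of its 126 endoderm reads, and the CXCR4 transcript, begin at exactly these RefSeq starts. CXCR4 has 3 RefSeq starts, and the window is that of the start its transcript uses. Each window holds the 60 bases before the start, minus strand, with TATA letters in capitals.
EOMES, chr3:27722324-27722383: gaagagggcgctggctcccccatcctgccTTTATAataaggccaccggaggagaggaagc
CXCR4, chr2:136118150-136118209: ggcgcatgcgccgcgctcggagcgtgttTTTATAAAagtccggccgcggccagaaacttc
In GSC the letters lay 155 bases before the start, in TBXT 29 bases before a start that no assembled transcript uses, and in HHEX they were not matched.

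GSC (ENSG00000133937.5; chr14, minus strand), the homeobox factor goosecoid of the organizer and anterior endoderm, had 42 and 35 endoderm reads. Ectoderm repeat 2 had 1 read, and the other 5 libraries had none. Endoderm was at least 11.4-fold above hPSC, at least 11.0-fold above mesoderm and 141-fold above ectoderm in pooled CPM (interval 24.6 to 5647). The fitted log2 fold change against hPSC was 8.99 ± 0.97 (SE; edgeR adjusted p = 2.15e-05).

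Most of these GSC reads were not counted on the spliced transcript. An unspliced transcript of 7489 bases at chr14:94761324-94768812 held 68 of 77 endoderm reads (88.3%; interval 79.0 to 94.5), 83.3% in repeat 1 and 94.3% in repeat 2. It starts inside the last intron, covering 163 of its 308 bases, and runs 6892 bases past the 3′ end of the reference. It covers 156 of the 771 coding bases (20.2%), and GENCODE 29 exons make up 5.80% of its length. The ectoderm read lay on it as well. The spliced GSC transcript (chr14:94768223-94770113), which starts at the RefSeq start, held 9 reads, 7 and 2. With transcripts that match reference introns alone, GSC therefore did not pass the count filter. The reads behind the GSC gene count are thus largely reads of the 3′ part and of sequence downstream of the gene.

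The splice that separates spliced from unspliced reads falls in the homeobox, within the helix that contacts DNA. MIXL1, whose reads were all spliced, is joined at the matching place. Both junctions are shown from GENCODE 29, with the 20 bases before the junction in lower case and the 20 bases after it in capitals.
GSC, exons 2 and 3: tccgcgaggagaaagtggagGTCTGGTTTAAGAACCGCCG
MIXL1, exons 1 and 2: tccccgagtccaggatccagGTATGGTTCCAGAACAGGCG
After the junction, 15 of 20 bases are the same in both genes. The GSC intron spans chr14:94768650-94768957 and the MIXL1 intron chr1:226224075-226225506.

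LHX1 (ENSG00000273706.5; chr17:36935254-36944612, plus strand), a LIM homeobox factor of the anterior streak and node, had 23 and 12 endoderm reads and 1 read in hPSC repeat 1. Endoderm was 32.3-fold above hPSC in pooled CPM (interval 5.43 to 1312), at least 5.02-fold above mesoderm and at least 9.63-fold above ectoderm. The fitted log2 fold change against hPSC was 5.12 ± 0.89 (SE; edgeR adjusted p = 0.000906).

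LHX1 reads also lay mainly on a form other than the reference mRNA. A transcript of 7568 bases that keeps the first intron held 26 of 35 endoderm reads (74.3%, interval 56.7 to 87.5), 78.3% and 66.7% in the repeats. It begins 2221 bases upstream of the start of the fully spliced GENCODE 29 form. Another LHX1 transcript of GENCODE 29, with 2 exons, starts between these points, at 36936785. The 1922-base intron, chr17:36938368-36940289, lies between parts of the coding sequence. The later introns of this form are spliced. The fully spliced form held 9 reads, 5 and 4, and its first junction is shown because it is what the longer form lacks (20 bases on each side, those after the junction in capitals).
LHX1, exons 1 and 2: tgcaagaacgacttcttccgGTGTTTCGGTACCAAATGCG
The 5′ part of the longer form overlaps a transcript of the divergent gene LHX1-DT on the other strand over 1417 bases. Whether counting used the strand is not given in the sources used here, so reads of the 2 genes cannot be told apart there.

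**Figure D2:**
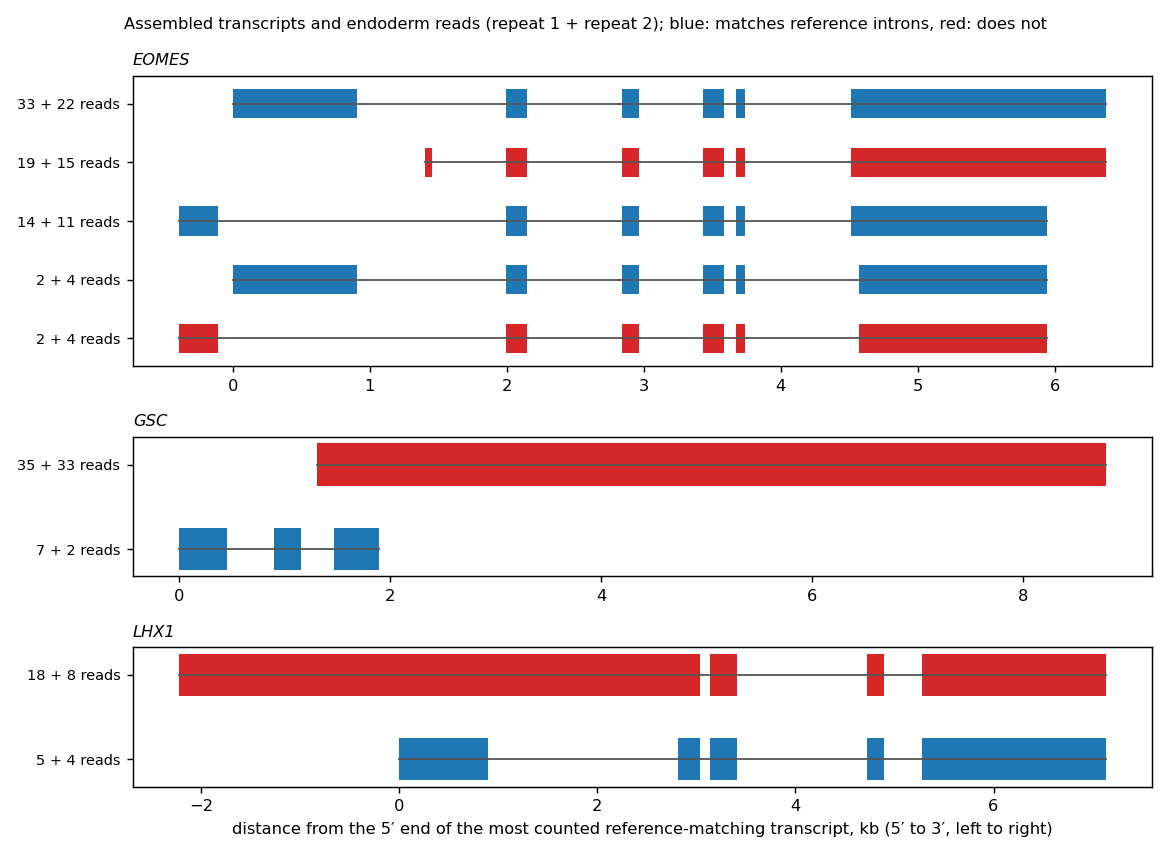
Assembled transcripts of EOMES, GSC and LHX1 with their endoderm reads (repeat 1 + repeat 2) on the vertical axis and the distance from the 5′ end of the most counted reference-matching transcript in kb on the horizontal axis. Boxes are exons, blue where the introns match a reference transcript and red where they do not, and the red GSC and LHX1 transcripts hold 68 and 26 reads against 9 reads each for the blue ones.

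**Figure D3:**
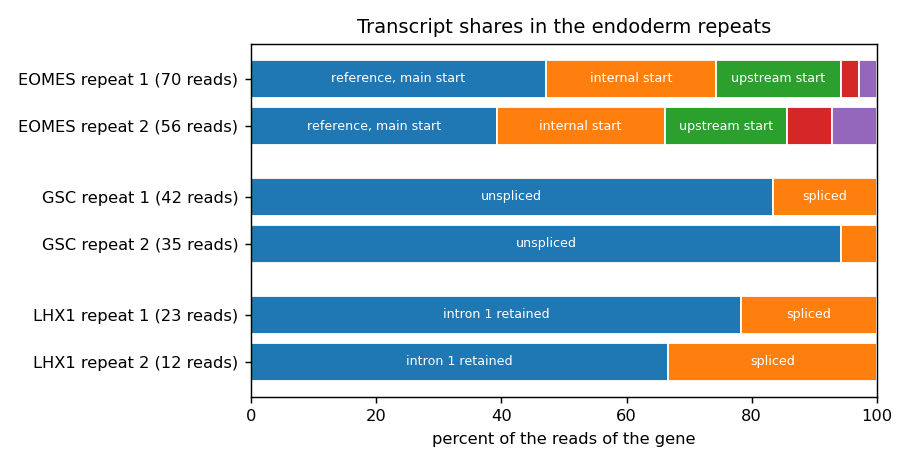
Share of each transcript, in percent of the reads of the gene, in the 2 endoderm repeats of EOMES, GSC and LHX1. Segments are transcripts, in the same order in both repeats, and the most counted segment is the same in both (47.1% and 39.3% for EOMES).

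Among the 563 endoderm reads of the 9 genes, 74.8% lay on transcripts that match the introns of a reference transcript, against 85.9% of all endoderm reads. Single-exon transcripts across an exon and an intron, the class of the GSC transcript, held 12.1% of the reads of the 9 genes and 0.323% of all endoderm reads. Transcripts with retained introns, the class of the LHX1 transcript, held 4.62% and 0.965%. These shares rest on 1 transcript each. All 10 multi-exon transcripts of the 9 genes that match a reference have the same introns in GENCODE 29.

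HHEX (ENSG00000152804.11; chr10:92689955-92695647, plus strand), a homeobox repressor of the anterior endoderm that is also used in blood and endothelial cells, had 12 and 8 endoderm reads. It had 2 reads in hPSC repeat 1, 1 in ectoderm repeat 1 and none in mesoderm. Endoderm was 9.23-fold above hPSC in pooled CPM (interval 2.24 to 81.4), 36.7-fold above ectoderm (5.86 to 1520) and at least 2.87-fold above mesoderm. HHEX did not pass the count filter, so it has no test across genes. Its 4 exons match the reference and it begins at the RefSeq start.

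SOX17 (ENSG00000164736.6; chr8:54457935-54460892, plus strand), the HMG-box factor most used to define endoderm, had 150 reads in endoderm repeat 1 and 16 in repeat 2. The exact Poisson 95% intervals of these counts are 127 to 176 and 9.15 to 26.0, and the other 6 libraries had none. The libraries have almost the same depth, with 585558 and 586183 reads. The mean of 142 ± 162 CPM (SD, n = 2) gives at least 24.5-fold above hPSC, 23.8-fold above mesoderm and 45.7-fold above ectoderm. With repeat 2 alone these bounds are 4.72, 4.58 and 8.80. The fitted log2 fold change against hPSC was 10.07 ± 1.66 (SE; edgeR adjusted p = 0.000792), and DESeq2 gave an adjusted p of 0.193. Without endoderm repeat 1 the fitted value was 7.83 (edgeR adjusted p = 0.0205).

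The 9.39-fold gap between the SOX17 repeats has no equal among well-covered genes. Of 2093 genes with at least 100 endoderm reads, SOX17 was the only one with repeats that far apart in either direction, and the median ratio of repeat 1 to repeat 2 was 0.986. The ratios of the other 8 genes were lowest in MIXL1, at 0.609, and highest in TBXT, which had 4 and 1 reads. Together these 8 genes had 208 and 189 reads in the repeats. SOX17 lay on 1 transcript, with the reference introns and 2 exons, in both repeats.

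**Figure D4:**
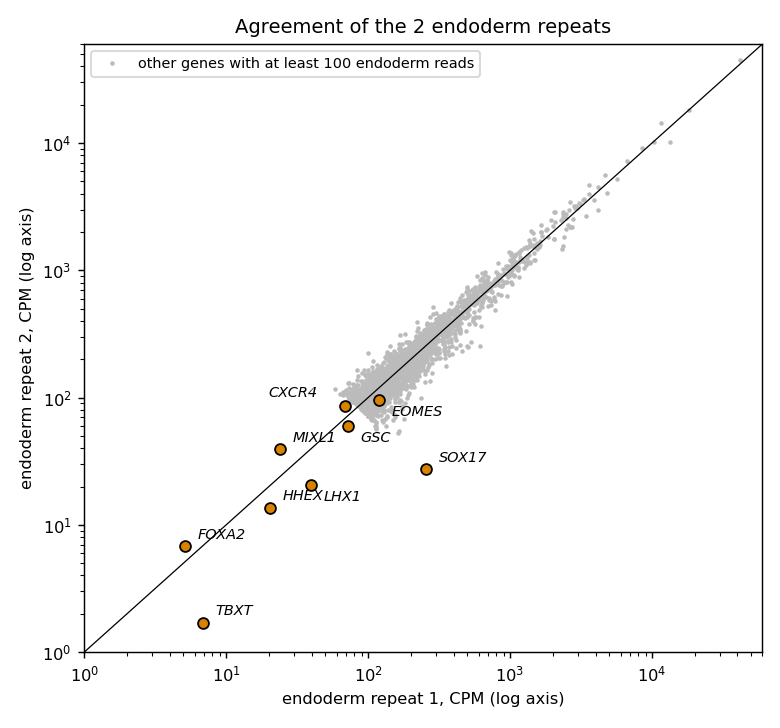
Level in endoderm repeat 2 against endoderm repeat 1, in CPM on log axes, with a line where the repeats are equal. Orange points are the 9 genes, and grey points the other genes among the 2093 with at least 100 endoderm reads. SOX17, at 256 and 27.3, lies apart from the grey band.

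FOXA2 (ENSG00000125798.15; minus strand), a forkhead pioneer factor of endoderm, had 3 and 4 endoderm reads and none elsewhere. By the mean of the repeats endoderm was at least 1.03-fold above hPSC, 1.00-fold above mesoderm and 1.93-fold above ectoderm. With repeat 1 alone these values are 0.887, 0.860 and 1.65, so the bounds set no difference from hPSC or mesoderm at this depth. All 7 reads lay on a single-exon fragment of 991 bases at chr20:22581175-22582165. It holds 313 of 1389 coding bases of a reference mRNA of 2422 bases. FOXA2 did not pass the count filter. In the fit without that filter it was called higher than in ectoderm, but not than in hPSC (edgeR adjusted p = 0.0756).

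CXCR4 (ENSG00000121966.8; chr2:136114349-136118149, minus strand), the receptor of the chemokine CXCL12, had 40 and 50 endoderm reads. Ectoderm repeat 1 and mesoderm repeat 2 had 1 read each, and hPSC had none. Endoderm was at least 13.3-fold above hPSC, 79.5-fold above mesoderm (interval 13.9 to 3174) and 165-fold above ectoderm (28.9 to 6588). The fitted log2 fold change against hPSC was 9.22 ± 0.95 (SE; edgeR adjusted p = 9.52e-06). All 92 CXCR4 reads lay on the form of 2 exons that begins at the RefSeq start shown above with its TATA letters. The junction is shown because exon 1 holds the first coding bases of the receptor (exon 1 in lower case, from the start codon, and exon 2 in capitals).
CXCR4, exons 1 and 2: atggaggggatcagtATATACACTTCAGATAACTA
The intron, chr2:136115913-136118045, is 2133 bases long. GENCODE 29 also lists a single-exon form, and no assembled transcript matches it.

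The test across genes could read 6 of the 9 genes: EOMES, MIXL1, GSC, LHX1, SOX17 and CXCR4. They passed the count filter through their endoderm reads alone, so a difference was built into their selection and their count is a description. All 6 were called higher in endoderm than in hPSC, where 13.4% of the 10847 genes tested were called higher (edgeR, adjusted p under 0.05). The 6 were also called higher than in mesoderm, with 23.2% of genes called higher there, and than in ectoderm, with 29.9%. The 3 comparisons share the endoderm libraries. Against mesoderm the fitted log2 fold changes ran from 6.63 ± 0.69 in CXCR4 (edgeR adjusted p = 5.86e-06) to 10.07 ± 1.61 in SOX17 (adjusted p = 0.000332, and 0.125 with DESeq2). Against ectoderm they ran from 7.34 ± 0.63 in GSC (edgeR adjusted p = 9.30e-07) to 10.07 ± 1.33 in SOX17 (adjusted p = 3.72e-05, and 0.0599 with DESeq2).

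Between mesoderm and hPSC, 0 of the 6 genes were called by edgeR or by DESeq2, and 0 had an unadjusted p under 0.05, where 35.2% of all genes tested were called in either direction. Between ectoderm and hPSC the counts were also 0, 0 and 0, against 48.6% of genes. With at most 2 reads per library on both sides, a difference was not detectable at this depth, and mesoderm, ectoderm and hPSC cannot be put in an order for any of the 9 genes.

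The genes of the same program were read from the fit over all genes, in lists chosen by their known roles. The lists were made with earlier results of these data known. Genes read almost only in endoderm passed the count filter through those reads, so their counts are a description, to be read beside the 13.4% of all genes tested that were higher in endoderm than in hPSC and the 13.7% that were lower. Of 14 transcription factors that work beside these genes in endoderm, 11 had reads and 7 were tested. Of those 7, 6 were higher in endoderm than in hPSC and 0 were lower. The median log2 fold change was 4.39, against -0.13 over all genes tested. GATA4, a zinc finger factor of endoderm and heart, had 72 and 64 endoderm reads and none elsewhere (at least 20.1-fold above hPSC; edgeR adjusted p = 5.29e-06). PRDM1, a repressor active in endoderm and germ cells, went from 0 and 1 reads in hPSC to 56 and 50 (97.8-fold in pooled CPM, interval 17.2 to 3900; edgeR adjusted p = 2.52e-06). GATA6 had 21 and 28 endoderm reads and 8 and 3 in mesoderm, and none in hPSC. OTX2, a homeobox factor present in hPSC already, rose from 40 and 78 to 241 and 238 reads (log2 fold change 2.21 ± 0.37, edgeR adjusted p = 0.000479). In mesoderm OTX2 fell by 6.82 on the log2 scale (edgeR adjusted p = 6.46e-06).

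Of 18 genes of the Activin and NODAL pathway, 17 were tested, 9 were higher in endoderm and 0 lower, with a median log2 fold change of 1.12, against 13.4% and 13.7% of all genes. The number higher was 6 without endoderm repeat 2, and 7 without endoderm repeat 1 or with DESeq2. CER1, a secreted inhibitor, had 974 and 1181 endoderm reads and none in the other 6 libraries, at least 318-fold above hPSC (edgeR adjusted p = 3.19e-07). LEFTY1, another inhibitor, had 1198 and 1034 endoderm reads against 0 and 1 in hPSC, and LEFTY2 had 383 and 470 against 2 and 2. LEFTY1 and LEFTY2 are near-identical copies, so how reads were shared between them is uncertain. FOXH1 had 55 and 47 reads in hPSC, 86 and 103 in endoderm, 5 and 5 in ectoderm and 0 and 1 in mesoderm. Its rise in endoderm was 1.12 ± 0.31 on the log2 scale (edgeR adjusted p = 0.0137), and the call was lost without endoderm repeat 2 and with DESeq2, where the adjusted p reached 0.0878. Its fall was 4.70 in ectoderm (log2 fold change -4.70 ± 0.42, edgeR adjusted p = 1.10e-06). TDGF1, the co-receptor of NODAL, had 524 and 626 reads in hPSC and 452 and 351 in endoderm, but 2 and 1 in ectoderm and 0 and 2 in mesoderm.

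Of 12 WNT and streak genes 7 were tested, and 3 were higher in endoderm and 0 lower, against 13.4% and 13.7% of all genes. FGF17, a secreted growth factor, went from 1 and 0 to 792 and 776 reads, 1447-fold in pooled CPM (interval 259 to 57191; edgeR adjusted p = 1.27e-07). WNT3, the WNT ligand of the streak, went from 4 and 5 to 129 and 97 reads (log2 fold change 4.84 ± 0.47, edgeR adjusted p = 3.72e-06). AXIN2, a target and inhibitor of WNT signals, went from 5 and 6 to 15 and 16 reads (edgeR adjusted p = 0.0218), and lost the call in 4 of 13 alternatives. LEF1 had no reads in hPSC or endoderm, 27 and 24 in ectoderm and 14 and 16 in mesoderm (edgeR adjusted p = 0.000619 and 0.000462 against hPSC).

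Of 15 streak and mesoderm factors 9 had reads and 4 were tested. All 4 were higher in endoderm than in hPSC, where 13.4% of all genes were higher. In mesoderm 3 of the 4 were higher than in hPSC and 0 lower, where 17.0% of all genes were higher and 18.2% lower. NKX2-5, a heart factor, had 34 and 25 reads in endoderm and 1 and 0 in mesoderm. HAND1, TBX3 and ISL1 were in both layers: HAND1 had 20 and 6 reads in endoderm and 263 and 274 in mesoderm. TBX3 had 23 and 19, and 132 and 180. ISL1 had 8 and 13, and 83 and 93. MESP1, MESP2, MSGN1, HAND2, CDX4 and TBX5 are not listed in the combined count table under their names. HAND1 and ISL1 are also on the amnion list given below.

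CXCR4 was read beside the genes of its own pathway. Of 9 such genes, all tested, 1 was higher in endoderm and 2 were lower, where 13.4% of all genes were higher and 13.7% lower. Without hPSC repeat 2, ARRB1 was also called higher. ACKR3, the second receptor of CXCL12, which removes the ligand, went from 0 and 3 reads in hPSC to 216 and 263 in endoderm, and to 58 and 75 in mesoderm (147-fold in endoderm in pooled CPM, interval 50.1 to 717; edgeR adjusted p = 8.11e-07). CXCL12 itself went the other way, from 65 and 31 reads in hPSC to 0 and 1 in endoderm, 104-fold lower in pooled CPM (interval 18.2 to 4151; edgeR adjusted p = 3.33e-05). CD74, a receptor for MIF that pairs with CXCR4, went from 33 and 53 to 2 and 7 reads (log2 fold change -3.03 ± 0.56, edgeR adjusted p = 0.000961). MIF and the G proteins and arrestins of the list were not called in endoderm. The endoderm cultures thus had reads of both CXCL12 receptors and 1 read of the ligand.

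Of 10 cofactors of the Groucho (TLE), LDB and SSBP families, which bind GSC, HHEX or LHX1, 9 were tested, 2 were higher and 1 lower, against 13.4% and 13.7% of all genes, and shares this near to those of all genes are no result about the list. In 6 of the 8 fits that left out 1 library, 1 was higher and 0 lower. SSBP3, which joins LHX1 complexes through LDB1, went from 26 and 25 to 61 and 68 reads (log2 fold change 1.56 ± 0.33, edgeR adjusted p = 0.00281). It lost the call with reference-matching transcripts alone (edgeR adjusted p = 0.104). TLE5 (77 and 14 reads in hPSC, 82 and 100 in endoderm, edgeR adjusted p = 0.0496) lost its call in 10 of 14 alternatives and TLE1 (163 and 22, then 26 and 12, edgeR adjusted p = 0.0235) in 8 of 14. The hPSC repeats of both lie far apart, and without hPSC repeat 2 the cofactors called were 1 higher and 3 lower.

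**Figure D5:**
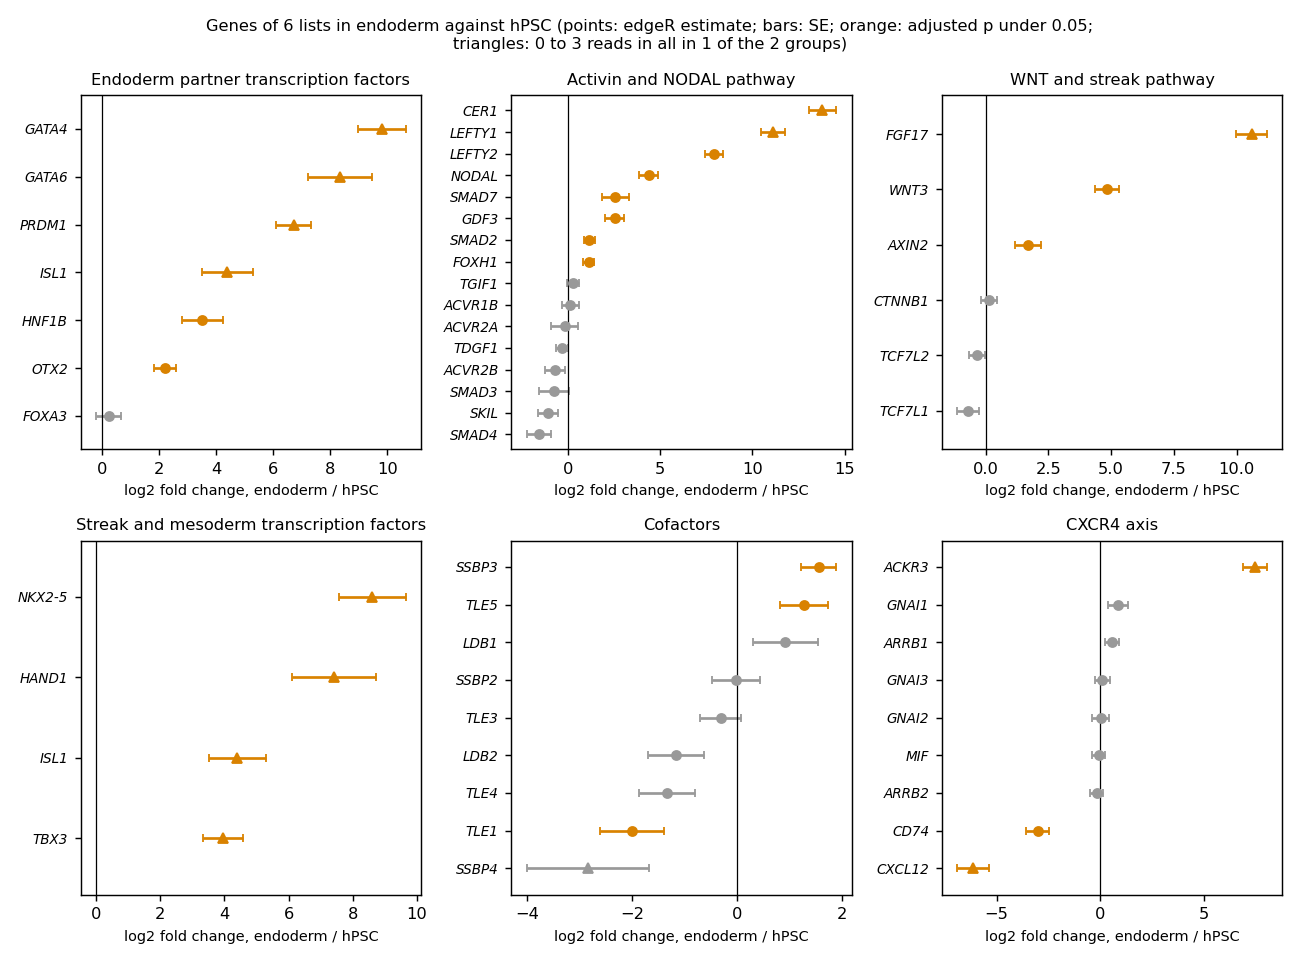
Fitted log2 fold change of endoderm over hPSC with its SE for tested genes of 6 lists, orange where the edgeR adjusted p was under 0.05 and grey otherwise, with triangles for genes of 3 or fewer reads in 1 group, whose value depends on the fit; LEF1, at 0 in both groups, and 1 gene of the Activin and NODAL list are left out. CER1, LEFTY1 and FGF17 lie farthest to the right and CXCL12 farthest to the left.

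Markers of other cell types were read beside these genes. Extraembryonic endoderm, which also uses SOX17, FOXA2 and HHEX, was represented by 5 of 7 markers in the table. Their summed level was 232 and 247 CPM in the endoderm repeats and 0 to 11.3 CPM elsewhere. It was carried by APOA1 (107 and 107 reads) and APOA2 (17 and 33), with 12 and 5 reads of HNF4A, while TTR and SOX7 were at 0 in both. AFP and APOB are not listed in the table and have no value. Pluripotent markers summed to 1431 and 1279 CPM in endoderm against 3717 and 3345 in hPSC. Of these 8 markers 6 were lower in endoderm and 0 higher, and 4 were lower when endoderm repeat 1 or endoderm repeat 2 was left out. Of all genes tested, 13.7% were lower in endoderm than in hPSC and 13.4% higher. POU5F1 went from 372 and 352 reads to 61 and 69, and SOX2 from 71 and 5 to 0 and 0, while NANOG kept 92 and 65 reads. Amnion or trophoblast markers summed to 113 and 63.1 CPM in endoderm, against 19.3 and 12.5 in hPSC and 5571 and 6111 in mesoderm. Of the 6 markers, 3 were higher in endoderm than in hPSC and 1 lower, against 13.4% and 13.7% of all genes. GATA3 had 34 and 18 endoderm reads and none in hPSC (edgeR adjusted p = 3.28e-05), and HAND1 and ISL1 were the others called higher. GABRP and CGA were at 0 in endoderm. In the mesoderm libraries all 6 of these amnion or trophoblast markers were higher than in hPSC, where 17.0% of all genes tested were higher. Neural markers, over the 6 that are listed, summed to 17.1 CPM in each endoderm repeat, against 13.5 and 3.56 in hPSC and 742 and 532 in ectoderm. LHX5, LHX2 and HESX1 were at 0 in both endoderm repeats. PAX6 had 6 and 5 endoderm reads and none in hPSC (edgeR adjusted p = 0.0115), and OTX1 had 4 and 4. Of 5 tested, 1 was higher in endoderm than in hPSC and 1 lower, against 13.4% and 13.7% of all genes. HESX1, called lower, lost the call in 11 of 13 alternatives, DESeq2 among them. PAX6 lost its call in 1 of 13 alternatives. Blood and endothelial markers, which matter for HHEX and CXCR4, summed to 63.2 and 52.9 CPM in endoderm against 135 and 99.6 in hPSC, over the 4 of 8 that are listed. Of these CDH5 was at 0 in endoderm, and PECAM1, TAL1, GATA1 and PTPRC are not listed. Notochord markers, which matter for TBXT, FOXA2 and GSC, summed to 1.71 and 0 CPM in endoderm, over the 3 that are listed. Their sums were 13.5 and 0 CPM in hPSC, 6.77 and 6.20 in ectoderm and 47.1 and 43.7 in mesoderm. CHRD and FOXJ1 were at 0 in endoderm, and NOTO and SHH are not listed. The part of any of these cells in the levels of the 9 genes was not tested.

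Among all genes tested other than the 9, those whose levels followed each of the 6 tested genes most closely were found by Pearson's r of log2 CPM over the 8 libraries, which share their group structure. Such r values describe a pattern of high in endoderm and near 0 elsewhere. EOMES was followed by GATA4 (r = 0.9999), CHI3L2 (0.9998) and NR0B1 (0.9996), and GSC by the same genes (0.9984, 0.9981 and 0.9981). Among the 6 genes themselves, EOMES and GSC had r = 0.9984. CXCR4 was followed by DKK1 (0.9985) and DKK4 (0.9944), both secreted WNT inhibitors, and SLC5A9 (0.9943). DKK1 had 22 and 25 endoderm reads and 1 read in mesoderm repeat 2. MIXL1 was followed by ALG1L7P (0.9922), CD177 (0.9916) and KEL (0.9916), and LHX1 by PPIAP46 (0.9892), FGF17 (0.9881) and CHI3L2 (0.9870). SOX17 was followed by PPIAP46 (0.9653), CHI3L2 (0.9635) and SERINC3 (0.9630), below its r of 0.9711 with LHX1. Its endoderm repeats differ. PPIAP46 and ALG1L7P are pseudogenes, whose reads could belong to a near-identical copy.

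Of 6 names of noncoding genes beside the 9 genes or their partners, 2 were tested. Both passed the count filter through their endoderm reads and were called higher in endoderm, where 13.4% of all genes were, so their count is a description. LHX1-DT had 12 and 14 endoderm reads against 0 and 1 in hPSC (edgeR adjusted p = 0.00125). GATA6-AS1 had 17 and 34 against none (edgeR adjusted p = 0.000285, and 0.312 with DESeq2), and its reads cannot be told apart from those of GATA6 if strand was not used. LINC00261 lies beside FOXA2 and had 8 and 4 endoderm reads. GSC-DT, LNCSOX17 and DIGIT are not listed in the table under these names. A gene listed only as ENSG00000285205 lies 465 bases from GSC on the other strand. Its transcripts had 4, 5 and 2 reads, of which 3, 4 and 2 were in endoderm.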

How the data were processed

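Long-read RNA was measured in 8 libraries, 4 groups of 2, with groups taken from each title. The authors deposited whole raw counts of reads per transcript of a combined assembly and of 1 assembly per group, not normalized. The 2 deposited endoderm columns are recorded under the unit expected counts, but hold whole raw counts like the others, and nothing was rounded. The deposited CPM tables, made by the authors, were used only to check the counts. The deposited assemblies give the transcripts, with class codes against a reference annotation. The submitters' processing notes name minimap2, StringTie and hg38 without roles. How reads of similar copies were shared, and whether strand was used, is not given in the sources used here.

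Gene counts were summed over the transcripts named for a gene in the combined assembly, and transcripts without a gene name were loci of their own. The test was that of edgeR 4.0.16 (R 4.3.3; TMM, filterByExpr by group with a minimum count of 10, glmQLFit and glmQLFTest, two-sided) in 1 fit over all 8 libraries, with no term for the repeat, and Benjamini-Hochberg adjustment over 10847 genes at 0.05. DESeq2 1.42.0 was an alternative. Each SE of an edgeR log2 fold change is its absolute value divided by the square root of the F statistic. It therefore restates the test and is no separate measure of precision. Columns were mapped to samples by name, and none was left over. Folds over a group with no reads are bounds against 3 counts in its shallower library. With 1 to 3 counts, ratios of pooled CPM have exact conditional binomial intervals (scipy 1.17.1). CPM uses the library total, and log2 CPM for r a prior count of 2. The test was also run on simulated counts, drawn around the mean level of each gene over all libraries, with some genes changed in endoderm. Genes read almost only in endoderm were not simulated, so that run does not bear on their calls.

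The 9 genes and all lists were chosen with earlier results of these data known. All 9 were named, and in each list up to 4 genes with the smallest p among those called in endoderm against hPSC, up to 2 called in mesoderm or ectoderm, and genes not listed. The list counts include 1 gene of the Activin and NODAL list that is not reported here by name. The text also names HNF4A, NANOG, SOX2, POU5F1 and other markers for their levels. Neighbours are transcripts within 50 kb with at least 10 counts. GENCODE 29 on GRCh38 and RefSeq promoters on GRCh38.p14 gave sequences, and 6 of the 9 genes had a promoter that was used.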

Additional observations from a re-analysis of the deposited data

Results flagged for a closer look

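Of 12 transcripts within 50 kb of the 9 genes that are named for none of them and have at least 10 counts, 6 had more reads in endoderm than in hPSC and 6 had fewer, the latter all of KIF11, ACBD3 and LIN9. Those given here had at least 3 reads in each endoderm repeat and at most 3 in every other library. LINC00261, a spliced noncoding RNA at chr20:22564056-22578580, 2595 bases from FOXA2 on the same strand, had 12 endoderm reads (8 and 4) and 0 in the other 6 libraries. FOXA2 itself had 7.

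Downstream of GSC, 2 transcripts without a gene name share the 3′ end of the unspliced GSC transcript. One has 2 exons (chr14:94761324-94768222), begins 1 base after the end of the spliced GSC transcript, and had 15 endoderm reads (10 and 5) and 0 elsewhere. The other is a single exon (chr14:94761324-94765184) with 17 endoderm reads (4 and 13), 1 and 2 reads in ectoderm and 0 in hPSC and mesoderm.

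An unspliced LHX1-DT transcript at chr17:36924725-36931308, 3946 bases upstream of the LHX1 span on the other strand, had 22 endoderm reads (10 and 12), 2 and 2 in mesoderm, 0 and 1 in ectoderm and 0 in hPSC. No difference of these transcripts was tested one by one.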

How the results depend on the processing

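The number of the 9 genes called higher in endoderm was 6 against each other group. Without the filter on low counts it was 7 against hPSC, 8 against mesoderm and 9 against ectoderm, HHEX being added in each. Against ectoderm these are all 9 genes, so FOXA2 and TBXT, with 7 and 5 endoderm reads, were called there too. With reference-matching transcripts only, chosen after the data were seen, it was 4 of 4 tested, because GSC and LHX1 no longer passed the filter. DESeq2 called 5, without SOX17. Leaving out 1 library at a time gave 5 to 7 in each of the 3 comparisons, and LHX1 was filtered out without endoderm repeat 1. RLE size factors gave 6 in each. The fit of the 2 groups alone gave 6, 6 and 7. Against hPSC, mesoderm and ectoderm gave 0 in every fit with one of the 9 genes tested, and the fits of these 2 groups alone tested none. The GSC unspliced share ran from 83.3% to 94.3% over single repeats (90.8% in the endoderm group's own assembly), that of LHX1 from 66.7% to 78.3% (74.3%) and the most counted EOMES transcript from 39.3% to 47.1% (46.8%). Over single named genes and settings, 949 of 993 results kept their call or lack of one, 41 lost a call, 3 gained one and 0 changed sign. Those kept include genes never called in endoderm against hPSC, such as LEF1 and LHX5. Fits in which a gene was filtered out are not counted, so these numbers do not measure how stable the positive calls are.

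A replicate block on the repeat number left 6 genes called in each endoderm comparison and moved the calls over all genes from 2943 to 2799 against hPSC. The deviations of same-numbered repeats correlated at -0.03 to 0.15 between groups, so the numbers were not taken to pair the samples. DESeq2 called 1836 genes over all against hPSC, 2315 against 3815 for mesoderm, and 3356 against 5275 for ectoderm. The planned test of transcript choice and its alternatives were not run for these genes, since no group but endoderm had reads enough to define a mix. Depth limits every statement on levels outside endoderm, and TBXT and FOXA2 inside it.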
